A study of Mus musculus with 6 samples.

Results

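The 10 genes described here are mouse carbonic anhydrases, chosen by their symbols as *Car2*, *Car3*, *Car4*, *Car5b*, *Car8*, *Car9*, *Car11*, *Car12*, *Car13* and *Car14* with no threshold on their values. They were 10 of the 56884 gene IDs in each table and 10 of the 16 carbonic anhydrase genes with a *Car* symbol there. RNA came from a mouse cell line made from the stromal vascular fraction (SVF) of subcutaneous white adipose tissue (scWAT), which holds adipocyte precursors. PPARγ2 K382Q was overexpressed in 3 libraries (K382Q cells) and PPARγ2 K382R in the other 3 (K382R cells), all at day 2 of differentiation to beige adipocytes. PPARγ2 is the transcription factor that drives adipocyte formation, and the comparison asks how transcripts differ between a lysine (K382) replaced by glutamine, which resembles an acetylated lysine, and by arginine, which cannot be acetylated.

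Both groups carried an HA-tagged mouse PPARγ2 from a retroviral vector under puromycin selection, and both received the same induction medium. Rosiglitazone, a PPARγ agonist, was present in this medium at 0.5 μM, and T3, the thyroid hormone, at 1 nM. Insulin was at 5 μg/mL, dexamethasone at 2 μg/mL, indomethacin at 125 μM and isobutylmethylxanthine at 500 μM. Cells with an empty vector or with wild-type PPARγ2 were not analysed here, so a value that is higher in one mutant cannot be told apart from one that is lower in the other. The endogenous *Pparg* gene was still present, and its reads were not separated from those of the vector. The labels call the libraries biological replicates, but do not say that they came from separately made cell lines, so each p-value measures the spread between these libraries only.

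Carbonic anhydrases are zinc enzymes that convert carbon dioxide and water to bicarbonate and a proton, and back. Cytosolic forms speed the exchange inside the cell, the mitochondrial form supplies bicarbonate to carboxylases such as pyruvate carboxylase, and membrane forms with an outward-facing active site act on the pH outside the cell. Adipocytes need bicarbonate to make lipid from glucose, because both acetyl-CoA carboxylase and pyruvate carboxylase consume it. The carbonic anhydrase-related members keep the fold of the enzyme but lack one or more of the histidines that hold the zinc.

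For *Car11*, that last distinction can be read in the coding sequence, which is why the following windows are shown. Each gives the bases, in the sense of the gene, that code for the site of the first zinc-binding histidine pair, with the codons at these positions in capitals. They were read from coding exons on GRCm39, the build of the tables, with the exon positions of GENCODE mouse release 39. They lie at chrX:162774404-162774424 on the minus strand (*Car5b*), chr4:43508958-43508978 on the plus strand (*Car9*), chr9:66654923-66654943 on the plus strand (*Car12*), chr11:84854987-84855007 on the plus strand (*Car4*), chr3:95807615-95807635 on the minus strand (*Car14*) and chr7:45351966-45351986 on the plus strand (*Car11*).
Car5b: cagtttCATtttCATtgggga
Car9: cagttgCATctaCACtgggga
Car12: cagctgCACttgCACtggggg
Car4: cagttgCACctgCACtggtca
Car14: cagctcCACctgCACtggggt
Car11: gaactgCGCctgCTAtttgga
CAT and CAC are the codons of histidine. The 5 catalytic members shown held a histidine codon at both positions, and *Car11* held one at neither. Over the aligned residues, the encoded proteins shared between 33.2% (*Car11*) and 38.3% (*Car4*) of their amino acids with that of *Car5b*.

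The total aligned length, a measure of depth, was 5.95 to 7.5 Gb in K382Q and 6.53 to 8.15 Gb in K382R cells. *Pparg* was at a TPM (StringTie's level per transcript length, scaled to a fixed sum in every library) of 1333, 1164 and 1104 in K382Q cells and of 1590, 1632 and 1612 in K382R cells. Its level was thus lower with K382Q (log2 fold change -0.43, adjusted p = 0.000977 by limma with Benjamini-Hochberg adjustment), and the part of this difference in the results that follow was not tested. On the TPM scale the median log2 fold change over the 15426 genes tested was -0.14, and it was 0.0032 after median-ratio scaling, which sets the bulk of genes equal. *Pparg* was at -0.28 after this scaling (adjusted p = 0.00785 by limma). In such bulk samples, fewer cells of a type and less RNA per cell cannot be told apart.

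The carbonic anhydrase transcripts were mostly those of 3 genes. *Car13*, *Car5b* and *Car2* together made up 94.5% to 95.3% of the summed TPM of the 10 genes in K382Q cells and 95.9% to 96.2% in K382R cells. With K382Q the order by level was *Car5b*, *Car13*, *Car2* and *Car3*, and with K382R *Car13* came before *Car5b*. *Car11* and *Car9* followed at low levels. Within each mutant, no neighbours in this order overlapped in level between libraries, down to *Car9*. *Car4* overlapped *Car12*, *Car14* and *Car8* in both mutants, while *Car12* and *Car14* overlapped with K382R and not with K382Q.

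**Figure D1:**
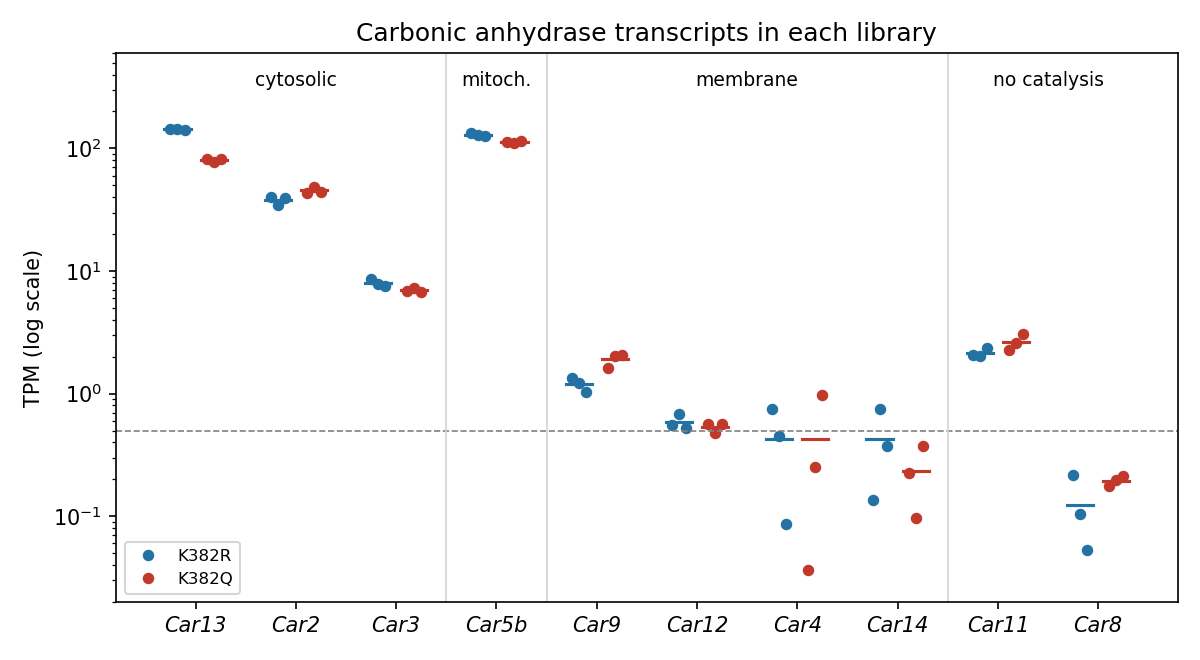
TPM of each of the 10 carbonic anhydrase genes (log axis) in the 3 K382Q and 3 K382R libraries; points are libraries, bars are group means and the dashed line is the TPM of 0.5 used for testing. *Car13* separates the groups, with 76.9 to 82.7 in K382Q and 142 to 144 in K382R, while the groups overlap in *Car12*, *Car4* and *Car14*.

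A gene was tested where its TPM reached 0.5 in 3 or more of the 6 libraries, and called at an adjusted p under 0.05. Of the 10 genes, 7 were tested. K382Q cells had higher levels of 2 of these (*Car2*, *Car9*) and lower levels of 2 (*Car13*, *Car5b*), and 3 were not called (*Car3*, *Car11*, *Car12*). Over all genes tested, 11.1% were called higher and 36.9% lower. With a fold change over 2, none of the 7 passed, at either an adjusted or an unadjusted p under 0.05 by limma, and 3.88% of all genes tested passed with adjustment. The groups did not overlap in 5 of the 7, against 57% of all genes tested. The median log2 fold change of the 7 was -0.07, and 0.0086 after median-ratio scaling.

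Among the cytosolic forms, *Car13* differed most. *Car13* (ENSMUSG00000027555.9, chr3:14706787-14728062, plus strand), a cytosolic carbonic anhydrase, was at a TPM of 82.7, 76.9 and 81.8 in K382Q cells and of 144, 143 and 142 in K382R cells. All K382Q libraries were thus far below all K382R libraries, and the replicates of each mutant lay close together. The mean was 80.5 ± 3.09 (SD, n = 3) against 143 ± 1.26 (SD, n = 3), a change of -43.8% with K382Q. The log2 fold change, computed on log2(TPM + 0.5), was -0.83 (SE 0.0359, 95% interval -0.91 to -0.75, adjusted p = 2.65e-06 by limma). Its coverage, StringTie's value for read depth, was 200 to 456. The call held in all 14 alternatives to the reported fit, where the log2 fold change lay between -0.85 and -0.68.

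*Car2* (ENSMUSG00000027562.13, chr3:14951333-14965830, plus strand), the widespread and very fast cytosolic enzyme, went the other way. Its TPM was 43.4, 48.5 and 44.2 in K382Q cells and 40.2, 34.8 and 39.7 in K382R cells. The groups did not overlap, although replicate 1 of K382Q and replicate 1 of K382R lay close together. The mean was 45.4 ± 2.75 against 38.2 ± 2.99 (SD, n = 3 each), 18.8% higher with K382Q. The log2 fold change was 0.25 (SE 0.0683, 95% interval 0.09 to 0.41, adjusted p = 0.019 by limma). It was 0.40 after median-ratio scaling (adjusted p = 0.00348 by limma). The call was lost without replicate 2 of K382Q (log2 fold change 0.20, adjusted p = 0.0606 by limma) and without the filter on low values (adjusted p = 0.0625).

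*Car3* (ENSMUSG00000027559.6, chr3:14928572-14937583, plus strand) encodes a cytosolic form of low hydratase activity that is abundant in mature adipocytes and skeletal muscle. Its TPM was 6.88, 7.32 and 6.71 in K382Q cells and 8.63, 7.78 and 7.60 in K382R cells. The groups did not overlap, but the highest K382Q library lay near the lowest K382R library. The mean was 6.97 ± 0.316 against 8.0 ± 0.552 (SD, n = 3 each), and the log2 fold change was -0.19 (SE 0.08, adjusted p = 0.0916 by limma), which was not called in the reported fit or in any of the 14 alternatives. The log2 fold change of *Car3* was -0.044 after median-ratio scaling (adjusted p = 0.702 by limma). Level and coverage were low beside those of *Car2*, at a coverage of 9.49 to 15.0.

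*Car13*, *Car3* and *Car2* lie on the plus strand within 259 kb of chromosome 3 (chr3:14706787-14965830, GRCm39). *Car1*, which encodes an erythrocyte form, lies among them on the minus strand. *Car1* stayed under a TPM of 0.5 in every library and was not tested. The neighbours thus included 1 gene called lower (*Car13*), 1 called higher (*Car2*) and 2 without a call.

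The ratio of genes within a library does not depend on how libraries are scaled to each other. The *Car13* to *Car2* ratio was 1.90, 1.59 and 1.85 in K382Q cells and 3.60, 4.12 and 3.57 in K382R cells. Every K382R library was far above every K382Q library, with means of 3.76 ± 0.309 and 1.78 ± 0.170 (SD, n = 3 each). The *Car13* to *Car5b* ratio crossed 1, with 0.730, 0.694 and 0.709 in K382Q and 1.09, 1.12 and 1.12 in K382R. The *Car5b* to *Car2* ratio was 2.5 ± 0.187 in K382Q and 3.4 ± 0.258 in K382R (SD, n = 3 each), also with no overlap. These ratios rest on the same values as the folds above and were not tested separately.

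**Figure D2:**
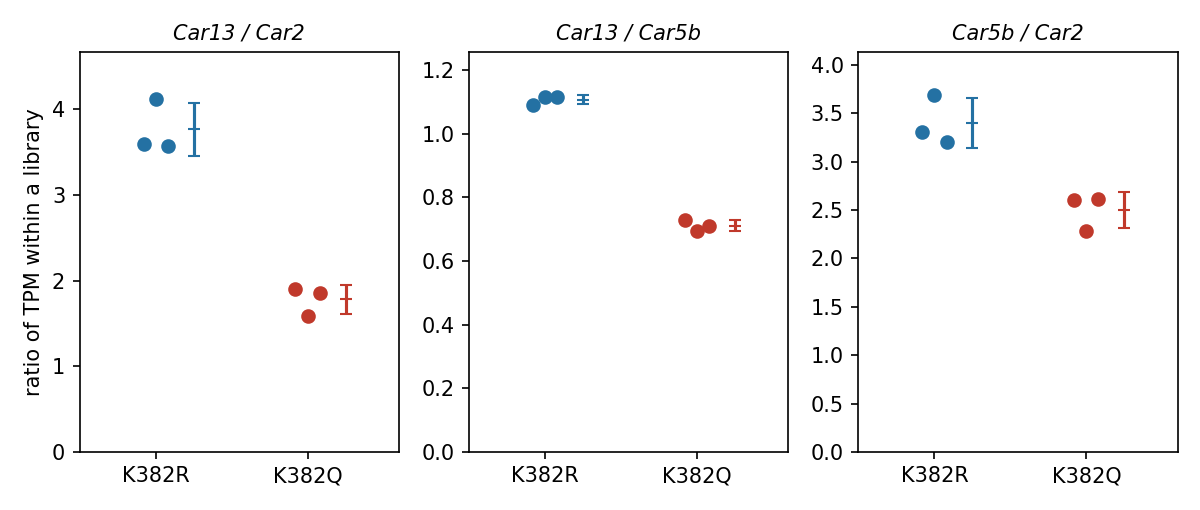
Ratios of TPM between carbonic anhydrase genes within each library; points are the 3 libraries of each mutant, and bars are means with 1 SD to either side. All 3 K382R libraries lie above all 3 K382Q libraries in each ratio shown.

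The mitochondrial form was the most abundant member in K382Q cells. *Car5b* (ENSMUSG00000031373.5, chrX:162759818-162810993, minus strand) was at a TPM of 113, 111 and 115 in K382Q cells and of 133, 128 and 127 in K382R cells. The groups did not overlap. The mean was 113 ± 2.26 against 129 ± 2.83 (SD, n = 3 each), a change of -12.5% with K382Q, with a log2 fold change of -0.19 (SE 0.0318, 95% interval -0.27 to -0.12, adjusted p = 0.00166 by limma). That difference was near the -0.14 of the median gene, and after median-ratio scaling *Car5b* was at -0.04 and was not called (adjusted p = 0.358 by limma). The call of *Car5b* therefore depended on the scaling, whereas *Car13* was called lower on both scales. Both scales are relative, so the direction in absolute terms was not settled for either gene. *Car5a*, the other mitochondrial form and best known from liver, was under a TPM of 0.5 in every library.

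Among the membrane forms, *Car9* (ENSMUSG00000028463.15, chr4:43506966-43513729, plus strand) was the only one called. It encodes a transmembrane enzyme that is a classical target of hypoxia-inducible factor (HIF). Its TPM was 1.63, 2.04 and 2.05 in K382Q cells and 1.34, 1.22 and 1.04 in K382R cells. The groups did not overlap, but every library was low, with a coverage of 1.67 to 4.14. The mean was 1.91 ± 0.243 against 1.2 ± 0.152 (SD, n = 3 each), 58.6% higher with K382Q. The log2 fold change was 0.50 (SE 0.15, 95% interval 0.15 to 0.85, adjusted p = 0.0265 by limma), and the pseudocount lowers it at this level. The call was lost in 6 of the 14 alternatives, with adjusted p-values up to 0.0856 by limma, while the log2 fold change stayed between 0.40 and 0.62. These 6 were no filter on low values, the replicate number as a block (adjusted p = 0.0607), and leaving out replicate 2 (0.0831) or 3 (0.0856) of K382Q or replicate 2 (0.0588) or 3 (0.0797) of K382R. *Car9* overlaps *Gm12454* on the opposite strand over 1798 bases, and reads of the 2 cannot be told apart without strand. *Gm12454* was at a TPM of 1.31 to 2.38 with K382Q and of 1.38 to 2.07 with K382R, with overlapping groups.

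*Car12* (ENSMUSG00000032373.16, chr9:66620968-66674127, plus strand), another transmembrane enzyme, was at a TPM of 0.560, 0.474 and 0.566 in K382Q cells and of 0.552, 0.682 and 0.527 in K382R cells. The groups overlapped, and the log2 fold change was -0.07 (SE 0.178, 95% interval -0.48 to 0.34, adjusted p = 0.772 by limma). It was -0.0095 without replicate 2 of K382R, -0.11 without replicate 3 of K382R and -0.029 without replicate 2 of K382Q, and turned to 0.0086 after median-ratio scaling, none with a call.

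*Car4* (ENSMUSG00000000805.19, chr11:84848612-84856870, plus strand), an enzyme tied to the outer membrane by a lipid anchor and known from capillary endothelium, was at a TPM of 0.0363, 0.253 and 0.980 in K382Q and of 0.743, 0.448 and 0.0864 in K382R. The libraries of each mutant thus differed more from each other than the groups did. It reached 0.5 in 2 of the 6 libraries and was not tested in the reported fit. *Car14* (ENSMUSG00000038526.15, chr3:95805080-95812003, minus strand), a transmembrane enzyme, reached 0.5 in 1 of the 6, replicate 2 of K382R at 0.75. *Car14* overlaps *Aph1a* on the opposite strand over 521 bases, and *Aph1a* was at a TPM of 72.2 to 75.4 in K382Q and of 90.3 to 93.7 in K382R. A low value of *Car14* may hold reads of *Aph1a*, which was not tested.

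The members without catalytic activity were both low. *Car11* (ENSMUSG00000003273.15, chr7:45349267-45354106, plus strand), a secreted carbonic anhydrase-related protein, was at a TPM of 2.28, 2.59 and 3.05 in K382Q cells and of 2.06, 2.04 and 2.37 in K382R cells. The groups overlapped at replicate 1 of K382Q and replicate 3 of K382R, and the log2 fold change was 0.24 (SE 0.135, 95% interval -0.08 to 0.55, adjusted p = 0.19 by limma). Without replicate 3 of K382Q it was 0.15, also not called. *Car8* (ENSMUSG00000041261.10, chr4:8143362-8239041, minus strand), which binds the inositol trisphosphate receptor, was at a TPM of 0.0526 to 0.217 and was not tested. With no filter on low values, the log2 fold change was -0.07 for *Car4*, -0.30 for *Car14* and 0.16 for *Car8*, and none was called (adjusted p = 0.944, 0.544 and 0.396 by limma).

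**Figure D3:**
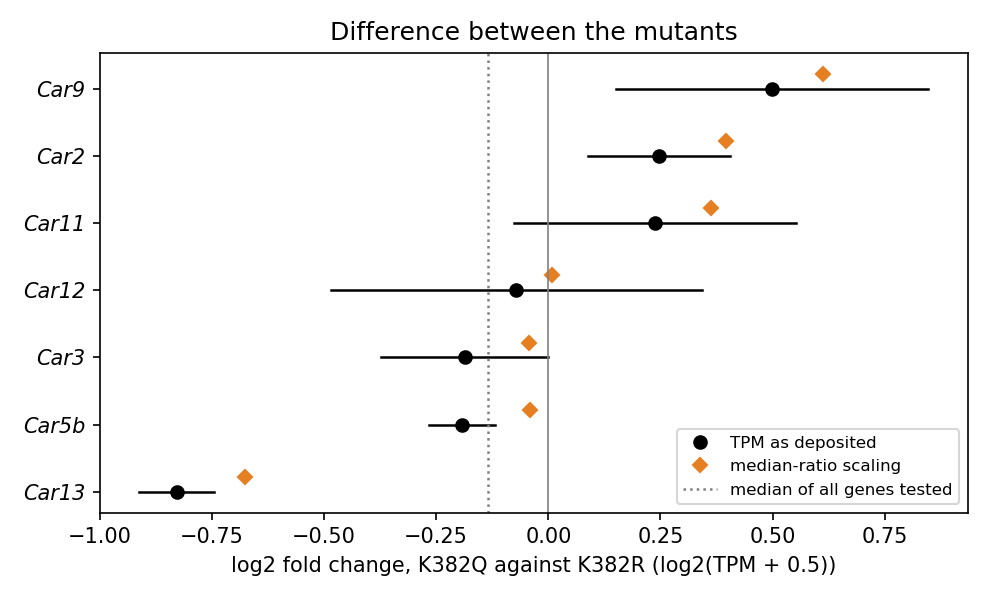
Log2 fold change of TPM, K382Q against K382R, of the 7 carbonic anhydrase genes tested; black points are limma estimates with 95% intervals, diamonds are the estimates after median-ratio scaling and the dotted line is the median of all 15426 genes tested. *Car13* lies far to the left at -0.83, *Car9* to the right at 0.50 with a wide interval, and *Car5b* near the median gene.

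Summed by form, the cytosolic members gave a TPM of 133.0, 132.8 and 132.7 in K382Q cells and of 193.3, 185.8 and 189.3 in K382R cells. All K382R libraries were above all K382Q libraries, and the difference of *Car13* was larger than that of the sum, since *Car2* went the other way. As a share of the 10 genes, the cytosolic members were 52.7% ± 0.669 (SD, n = 3) with K382Q and 58.5% ± 0.410 (SD, n = 3) with K382R. The mitochondrial member *Car5b* was 44.9% ± 0.391 (SD, n = 3) with K382Q and 40.0% ± 0.286 (SD, n = 3) with K382R. The shares of *Car13* itself were 30.9% to 32.9% and 43.7% to 44.8%, those of *Car2* 17.3% to 19.5% and 10.9% to 12.4%. The membrane members summed to a TPM of 2.45, 2.86 and 3.97 with K382Q and of 2.77, 3.11 and 2.03 with K382R, with overlapping groups. The sum over all 10 genes was 252 ± 3.09 with K382Q and 324 ± 6.24 with K382R (SD, n = 3 each).

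Of the 6 other carbonic anhydrase genes in the tables, *Car6* and *Car7* were tested. *Car6* encodes the secreted form known from saliva. Its TPM was 11.3, 11.8 and 9.99 in K382Q cells and 3.80, 4.06 and 4.89 in K382R cells. The groups were well apart, with means of 11.0 ± 0.946 and 4.25 ± 0.568 (SD, n = 3 each) and a log2 fold change of 1.28 (SE 0.11, adjusted p = 5.96e-05 by limma). It passed a fold change over 2 in the reported fit and in all 14 alternatives, and was the one carbonic anhydrase gene of the 9 tested to do so in the reported fit. *Car7*, a cytosolic form known from brain, was at 0.527 to 1.08 over all libraries with overlapping groups, and was not called (log2 fold change -0.22, adjusted p = 0.465 by limma). Its log2 fold change was -0.41 without replicate 3 of K382R, -0.10 without replicate 1 of K382R, and -0.14 without replicate 2 of K382R or replicate 3 of K382Q, none called.

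HIF binds the core letters ACGTG or GCGTG in hypoxia response elements, and the promoters of *Car9* and *Car5b* are shown because these genes, called in opposite directions on the TPM scale although *Car5b* was not called after median-ratio scaling, differ in their matches to those letters. The sequences are the 250 bases before and the 50 after the start site in the RefSeq table on GRCm38.p6, an older build than that of the tables. They lie at chr4:43506776-43507075 on the plus strand (*Car9*) and chrX:164027961-164028260 on the minus strand (*Car5b*). Capitals mark each match on either strand (CACGT and CACGC are matches read on the opposite strand).
Car9: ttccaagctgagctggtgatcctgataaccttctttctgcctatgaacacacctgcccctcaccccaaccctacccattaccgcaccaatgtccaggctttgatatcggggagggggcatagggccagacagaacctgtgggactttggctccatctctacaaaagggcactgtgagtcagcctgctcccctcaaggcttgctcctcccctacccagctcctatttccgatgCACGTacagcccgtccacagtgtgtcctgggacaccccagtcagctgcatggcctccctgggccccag
Car5b: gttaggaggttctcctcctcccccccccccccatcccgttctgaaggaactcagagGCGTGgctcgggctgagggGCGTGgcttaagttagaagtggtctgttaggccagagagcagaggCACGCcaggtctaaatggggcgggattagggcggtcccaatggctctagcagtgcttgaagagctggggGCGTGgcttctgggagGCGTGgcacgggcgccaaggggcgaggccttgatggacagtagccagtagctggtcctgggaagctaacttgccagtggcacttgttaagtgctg
The promoter of *Car9* held 1 match, at position -18 from the start site, and that of *Car5b* held 5, at positions -194 to -45. Of the 32851 promoters of this length in the table, 43.8% held at least 1 match and 1.66% held 5 or more. A promoter was found for 6 of the 10 members (*Car4*, *Car5b*, *Car9*, *Car11*, *Car12* and *Car14*). *Car4* and *Car14* had 1 match each, *Car11* had 1 in each of its 2 promoters and *Car12* had none. Of the 2 tested genes outside the 10, *Car6*, called higher, had 3, at -149, -148 and +43. The 3 promoters of *Car7*, which was not called, had 2, 0 and 1. *Car9* and *Car5b* were picked with their values known, and a link between matches and fold change was not tested. The letters AGGTCA, on which nuclear receptors such as PPARγ bind, were in none of the 6 members' promoters and in 16.3% of all promoters. A match is a run of letters and says nothing of binding in these cells.

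Beside *Car9*, most genes of a hypoxia list were called higher. Of 12 hypoxia-response genes other than carbonic anhydrases, 11 were higher with K382Q, 1 was not called and none was lower, with a median log2 fold change of 1.22 against -0.14 for all genes tested. The most abundant was *Pgk1*, a glycolytic enzyme, at a TPM of 3469 ± 66.7 with K382Q and 2038 ± 15.6 with K382R (SD, n = 3 each, log2 fold change 0.77, adjusted p = 1.37e-06 by limma). *Bnip3*, a mitochondrial receptor for mitophagy, was at 742 ± 11.4 against 310 ± 3.62 (SD, n = 3 each, log2 fold change 1.26, adjusted p = 2.51e-07 by limma). *Ero1a*, an oxidase of the endoplasmic reticulum, had a log2 fold change of 1.58, and *Ldha*, lactate dehydrogenase, of 0.41, both called higher. The log2 fold change of *Car9*, at 0.50, was below the median of this list. Over all genes tested, 11.1% were called higher. The list was chosen with earlier results of these data known, so its count and median are only a description. HIF activity was not tested.

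The genes that move bicarbonate across membranes were the next group. Of 20 genes of the SLC4 and SLC26 families, 10 were tested, 2 were higher with K382Q and 3 were lower, with a median log2 fold change of 0.07, and after median-ratio scaling 2 were higher and 1 was lower, with a median of 0.21. *Slc4a4*, a sodium-bicarbonate cotransporter, was at a TPM of 32.3, 31.1 and 30.3 in K382Q cells and of 11.5, 11.9 and 12.4 in K382R cells. Its groups were far apart (log2 fold change 1.35, SE 0.0523, adjusted p = 1.58e-06 by limma), and the call held in all 14 alternatives. *Slc4a2*, the most abundant chloride-bicarbonate exchanger here, was lower with K382Q at 69.5 ± 0.922 against 87.3 ± 1.88 (SD, n = 3 each, log2 fold change -0.33, adjusted p = 0.000125 by limma). Its log2 fold change was -0.18 after median-ratio scaling (adjusted p = 0.00373 by limma). The sodium-bicarbonate cotransporter gene *Slc4a7* (log2 fold change -0.34) and the sulfate and anion transporter gene *Slc26a2* (-0.31) were called lower on the TPM scale but not after median-ratio scaling (adjusted p = 0.0677 and 0.0686 by limma). *Slc26a6*, named here after its values were seen as the other gene called higher (log2 fold change 0.35), lost the call in 7 of the 14 alternatives.

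Of 16 genes for proton and lactate export, 12 were tested, 5 were higher with K382Q and 3 were lower, with a median log2 fold change of -0.02, and after median-ratio scaling 5 were higher and 2 were lower, with a median of 0.09. *Bsg*, the chaperone of monocarboxylate transporters, was at a TPM of 3673, 4057 and 3879 in K382Q cells and of 1860, 1840 and 1848 in K382R cells (log2 fold change 1.06, SE 0.0398, adjusted p = 1.36e-06 by limma). The groups were far apart. Its partner *Slc16a1*, a lactate and proton carrier, was higher by less, at 332 ± 2.29 against 293 ± 4.56 (SD, n = 3 each, log2 fold change 0.18, adjusted p = 0.000853 by limma). The log2 fold change of *Slc16a1* was 0.33 after median-ratio scaling (adjusted p = 5.72e-05 by limma).

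Of 9 enzymes that use bicarbonate, 8 were tested, 3 were higher and 3 lower, with a median log2 fold change of 0.05. After median-ratio scaling 4 were higher and 1 was lower, with a median of 0.20. *Pcx*, the mitochondrial pyruvate carboxylase served by *Car5b*, was the most abundant at a TPM of 651 ± 8.53 with K382Q and 723 ± 10.2 with K382R (SD, n = 3 each). It was called lower on the TPM scale (log2 fold change -0.15, adjusted p = 0.00221 by limma), as *Car5b* was, and like *Car5b* it was not called after median-ratio scaling, where it was at 0.0017. *Pccb* and *Pcca*, the subunits of propionyl-CoA carboxylase, were higher (log2 fold change 0.41 and 0.21), although *Pcca* lost the call in 6 of the 14 alternatives. *Pcca* was at 0.35 after median-ratio scaling (adjusted p = 0.00353 by limma). *Acaca*, the cytosolic acetyl-CoA carboxylase, was at -0.11 (adjusted p = 0.0487 by limma), turned to 0.04 after median-ratio scaling and kept the call in 3 of the 14 alternatives. *Acacb*, the acetyl-CoA carboxylase of the mitochondrial surface, and *Cad*, of pyrimidine synthesis, were named after their values were seen as the largest differences of the list, with log2 fold changes of 1.26 and -0.51. Of the 8 genes for sensing acid or bicarbonate, only *Asic1* was tested, and it was not called.

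**Figure D4:**
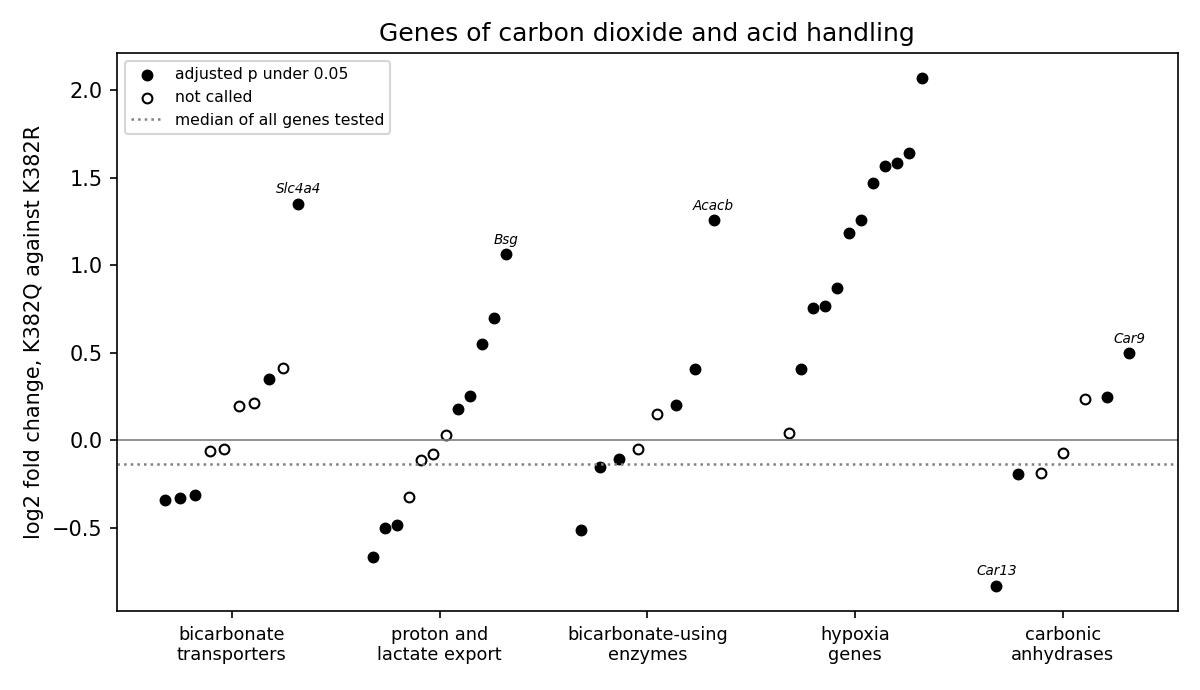
Log2 fold change of TPM, K382Q against K382R, of each tested gene of the carbonic anhydrases and of the lists for bicarbonate transport, proton and lactate export, bicarbonate use and hypoxia; 1 point per gene, filled where called, with the median of all genes tested as a dotted line. The hypoxia list lies highest with a median of 1.22, while the other lists lie on both sides of 0. The lists were chosen with earlier results of these data known.

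Markers of the cells were read beside these results. The label of differentiating adipocyte precursors fitted the levels, since all 12 adipocyte markers were tested, their summed TPM was 54961 to 58806 with K382Q and 45133 to 46446 with K382R, and *Fabp4*, at 47893 against 37837 on average, made up most of that sum. Of these 12, 6 were higher with K382Q and 2 lower, and after median-ratio scaling 9 were higher and 1 lower. With a fold change over 2, 2 were called higher and 1 lower, and these are named after their values were seen. Those higher were *Cfd*, at a mean TPM of 485 with K382Q against 206 with K382R, and *Slc2a4*, at 46.2 against 20.1. *Adipoq*, the hormone adiponectin, was lower with K382Q at a TPM of 148 ± 1.2 against 360 ± 20.2 (SD, n = 3 each, log2 fold change -1.28, adjusted p = 7.63e-07 by limma). All 5 precursor and fibroblast markers tested, of 7, were lower with K382Q, with a summed TPM of 508 to 552 against 866 to 903, and with log2 fold changes from -1.25 to -0.72, the latter that of *Ly6a*, the most abundant. This shift moved with the difference in *Car13*, and its part in that difference was not tested. Endothelial markers summed to a TPM of 1.6 to 2.25 with K382Q and of 1.71 to 1.94 with K382R, with *Emcn* at 0 in every library, beside the low values of *Car4*. Most of the endothelial sum was *Pecam1*, at a mean TPM of 1.75 with K382Q against 1.53 with K382R, which was not called. Erythroid markers, which bear on *Car1* and *Car2*, summed to 0.588 to 0.868 and to 0.213 to 1.13, with *Hbb-bs* and *Hbb-bt* at 0 in every library. Leukocyte markers summed to 3.46 to 4.69 and to 3.35 to 5.18, with *Adgre1* and *Cd3e* at 0 in every library. Nearly all of the leukocyte sum was *Cd68*, at a mean TPM of 4.08 with K382Q against 4.14 with K382R, which was not called. Skeletal muscle markers, which bear on *Car3*, summed to 2.55 to 3.56 with K382Q and to 5.48 to 7.15 with K382R, with *Myog* at 0 in every library. Most of that difference lay in *Acta1*, a skeletal muscle actin (mean TPM 2.56 against 5.37, log2 fold change -0.94). *Tnnt1*, a troponin that was not tested, was at a TPM of 0 to 0.0953 with K382Q and of 0.404 to 0.711 with K382R, while *Mb*, myoglobin, had a log2 fold change of 0.15 and was not called. Its part in the values of *Car3* was not tested.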

How the data were processed

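RNA-seq libraries of the 6 samples were analysed as 3 PPARγ2 K382Q and 3 PPARγ2 K382R libraries at day 2. According to the submitters' notes, reads were aligned to GRCm39 with HISAT2 and quantified with StringTie by the authors; the annotation release and the use of strand were not given in the sources used here. The authors deposited 1 gene table per library with coverage (StringTie's value for read depth), FPKM and TPM (scaled to a fixed sum). Coverage was not proportional to TPM across genes. In replicate 1 of K382Q, *Car13* had a coverage of 203 at a TPM of 82.7, and *Car5b* one of 150 at 113. The coverage of a gene with several transcripts may thus differ from the read depth over the whole gene. Repeated entries of a gene ID (3 to 5 per table) were summed. Counts were not analysed here, so no counting interval is given, and the number of libraries limits the precision. The total aligned length was taken as the commonest ratio of coverage to FPKM, on the assumption that this is the ratio of genes with 1 transcript.

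The deposited TPM values were compared as log2(TPM + 0.5) with limma 3.58.1 (R 4.3.3, intensity trend, Benjamini-Hochberg adjustment over all 15426 genes whose TPM reached 0.5 in 3 or more libraries). A call needed an adjusted p under 0.05. Fold changes on this scale understate those of low genes. An exact permutation test of 3 against 3 libraries cannot go below 0.1 and was not used. The script was tested on simulated data. Each library was left out in turn, and the fit was repeated with a replicate block, without the trend, with median-ratio scaling, on FPKM, with a TPM minimum of 1 or none, and with pseudocounts of 0.1 and 1. Summaries used Python 3.11.15, and sequences were aligned with Biopython 1.88. All members were named, with up to 4 genes per list by mean TPM and a few others named as such. Members were set by symbol, not by a measured value, but they and the lists were chosen with earlier results of these data known. Results for some single genes of the lists are not reported here.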

Additional observations from a re-analysis of the deposited data

How the results depend on the processing

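Under median-ratio scaling 3057 genes were called higher with K382Q and 3153 lower, against 1717 and 5698 on the TPM scale, and the carbonic anhydrases called lower went from 2 to 1 (*Car13*), since *Car5b* lost its call. There *Car12* turned to 0.0086, *Pcx* to 0.0017 and *Acaca* to 0.043, all without a call; scaling sets the typical gene to no change, by construction. Carbonic anhydrases called higher, 2 in the reported fit, were 0 with no filter on low values, 1 with the replicate block and 0 to 2 when each library was left out (0 without replicate 2 of K382Q, 1 without replicate 3 of K382Q or replicate 2 or 3 of K382R). The cause of these losses was not tested. *Car9* and *Car2* kept their direction in all 14 alternatives, *Car13* its call too, and no carbonic anhydrase of the 10 passed a fold change over 2 in any. The block gave 1600 genes higher and 5387 lower and changed no call of a member except that of *Car9*. Same-numbered libraries did not deviate together (correlations -0.018, 0.051 and 0.022, and 3 of 6 libraries closest to their own number), so the numbers were not taken to pair them. FPKM gave 2368 genes higher and 4135 lower. The shares by form moved by less than the spread between replicates without each library, and cannot change with FPKM, which is proportional to TPM within a library. For the other genes given with a log2 fold change, the same alternatives were added after the data were seen. When each library was left out, *Mb* lay between -0.048 (without replicate 3 of K382R) and 0.36 (without replicate 1 of K382R). *Mb* was not called in any alternative. The TPM of *Car4*, *Car8*, *Car12* and *Car14* was under 1 in every library, and what depth alone contributed to their spread was not tested.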
